A study of Mus musculus with 4 samples.

Results

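Myoblasts of mouse skeletal muscle that received a Twist2 retrovirus were compared before and after 5 days in differentiation medium. The comparison rests on 1 library of each state, and every gene of the deposited table was used, 3760 of 3760. The cells came from adult C57BL/6 skeletal muscle and are called twist2+ myoblasts in the labels, which do not say how they were isolated. They were cultured on matrigel in Ham's F10 with 20% fetal bovine serum. All received retrovirus for 24 h and then 24 h of growth medium. The virus carried Twist2 followed by an internal ribosome entry site and green fluorescent protein (the Twist2 cells), or GFP only (the GFP cells). Cells were harvested at that point (growth medium) or moved to high-glucose DMEM with 2% horse serum and harvested 5 days later (differentiation medium). The labels do not give the promoter that drove the insert, the share of infected cells or any sort. The 2 GFP libraries, treated alike, serve here as the reference response.

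Twist2 is a basic helix-loop-helix (bHLH) transcription factor that binds E-boxes, the same short DNA elements as the myogenic factors MyoD and myogenin, and it is known to hold back muscle differentiation. In normal culture, serum withdrawal makes myoblasts leave the cell cycle, switch on myogenin and Mef2 factors, fuse into myotubes and assemble sarcomeres. Undifferentiated mesenchymal cells instead keep making matrix and growth factor signals. The comparison shows which of these steps were seen in the culture that received the Twist2 virus, without telling infected from uninfected cells.

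Total reads were 11068073 in the Twist2 growth library, 12362290 in the Twist2 differentiation library, 9744075 in the GFP growth library and 9235281 in the GFP differentiation library. Values are CPM, in which the authors divided out the size of each library, and no group was replicated, so no difference has a replicate check and a library cannot be told apart from its condition. A response is the log2 ratio of CPM + 1, differentiation over growth medium, and 2-fold means a log2 ratio of at least 1 or at most -1. The intervals beside single genes are 95% intervals of the read ratio on the log2 scale, without the added 1 CPM, and cover counting error only. Where a gene has few reads the added 1 CPM pulls its log2 ratio toward 0, so the ratio can lie outside that interval. In bulk RNA, fewer cells of a type and less RNA per cell cannot be told apart.

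Twist2 (chromosome 1, 91801461 to 91848028, plus strand, GRCm38) was at 1438 CPM (15915 reads) in the Twist2 growth library and 674 CPM (8335 reads) in the Twist2 differentiation library. The GFP growth library held 0.103 CPM, from 1 read, and the GFP differentiation library was listed at 0. The virus-borne gene thus separated the libraries as labelled and was still abundant on day 5, at a log2 ratio of -1.09 (interval -1.13 to -1.05). Twist1, its close relative, was at 17.4 CPM before and 9.87 CPM after, a ratio of -0.76, under 2-fold. Of 13 listed myoblast markers, 12 had reads in the Twist2 growth library and Chodl had 0. Below the GFP growth library were 12, and 7 of them by at least 2-fold (median -1.01), against 11.5% of all genes. Des (desmin) was at 726 CPM, Itga7 at 752 CPM and Cdh15 (M-cadherin) at 243 CPM in growth medium.

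In the Twist2 cells 986 of the 3760 genes (26.2%) were at least 2-fold higher in differentiation medium, 922 (24.5%) were at least 2-fold lower and 1852 were under 2-fold. The counting interval excluded equality for all 986 and all 922, and lay wholly beyond 2-fold for 837 genes higher and 713 lower. The median ratio of all genes was -0.22, with quartiles of -0.99 and 1.05. At least 8-fold higher were 224 genes and at least 8-fold lower were 81. Of the genes past 2-fold, 51.7% were higher. That share was 66.0% when libraries were scaled to their reads outside the table, which moved the median of all genes by 0.25 (1220 higher, 628 lower). In the GFP cells 1208 genes (32.1%) were higher and 1545 (41.1%) lower, with 225 and 243 past 8-fold. The share higher there was 43.9%, against 56.5% with median-of-ratios size factors and 68.4% with scaling to reads outside the table, for median shifts of 0.34 and 0.78. The table lists only genes that differed at least 2-fold from the GFP growth library in some library, which raises the GFP counts. Both Twist2 libraries were among those used for entry. The Twist2 shares of 26.2% and 24.5% therefore hold within this table, not for all expressed genes. Of the 3760, 1333 entered through the GFP response only, so the sizes of the 2 responses are not compared by these counts.

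**Figure D1:**
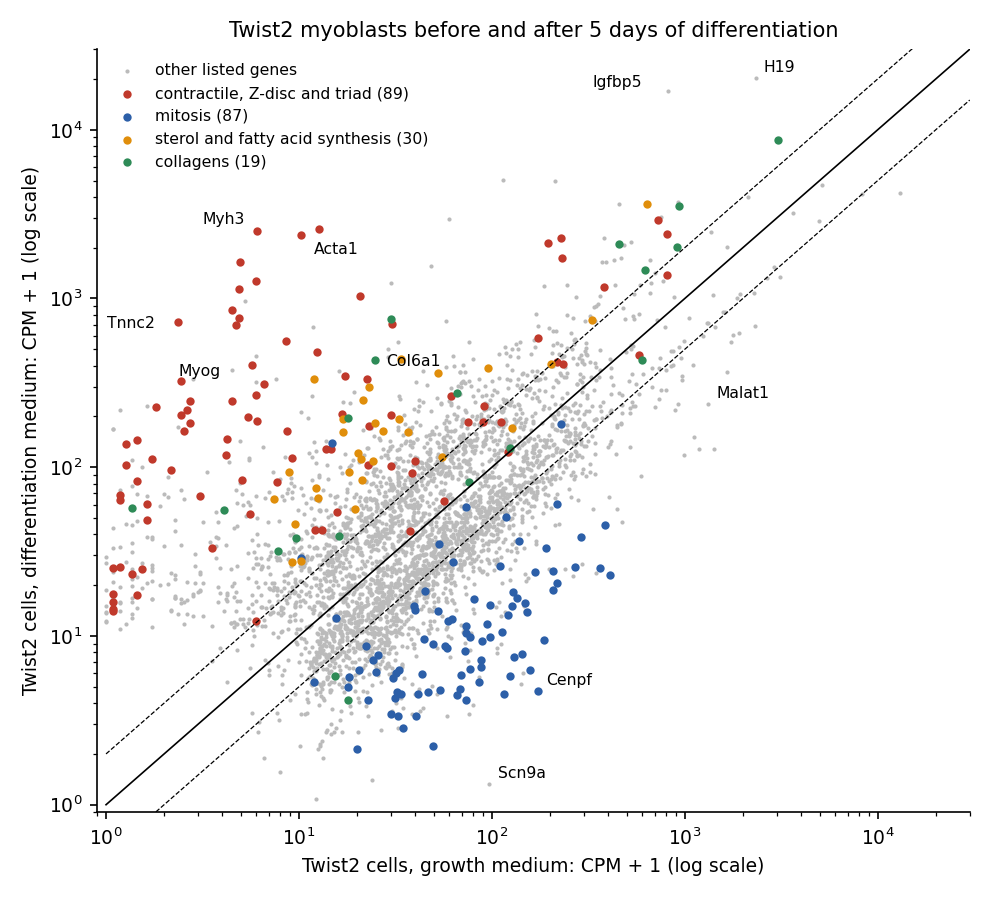
Each point is 1 of 3760 genes, with CPM + 1 in the Twist2 growth library on the x axis and in the Twist2 differentiation library on the y axis, both log scales. The solid line marks equal values and the dashed lines 2-fold. Contractile, Z-disc and triad genes (red) and sterol genes (orange) lie mostly above the lines, collagens (green) also mostly above and mitosis genes (blue) mostly below.

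Of 18 myogenic regulators, which start and steer differentiation, 7 were at least 2-fold higher and 1 lower, with a median of 0.58 against -0.22 for all genes. Myog (myogenin, the bHLH factor that starts terminal differentiation; chromosome 1, 134289989 to 134292548, plus strand) was at 3.52 CPM in growth medium and 378 CPM in differentiation medium of the Twist2 cells, and at 76.4 and 1075 CPM in the GFP cells. Its ratio was 6.39 (interval 6.29 to 7.24) with Twist2 and 3.80 with GFP: the Twist2 cells began lower and ended lower, but the step between their media was larger. Smyd1, a muscle methyltransferase needed for myofibril assembly, had the same pattern, at 5.60 and 311 CPM with Twist2 and 66.2 and 648 CPM with GFP.

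Myod1 (MyoD, which commits cells to the muscle lineage) was at 547 CPM and then 1068 CPM in the Twist2 cells, and at 1184 and 809.7 CPM in the GFP cells. It stayed under 2-fold in each, with ratios of 0.96 and -0.55. The Twist2 growth library was the lowest of the 4, and after differentiation the Twist2 library was above the GFP library. Mef2c, the Mef2 factor that drives late sarcomere genes, was the regulator with the widest gap between the cell types. It had 0.181 CPM (2 reads) in Twist2 growth medium and 10 CPM after differentiation, against 0.513 and 264 CPM in GFP cells. The Twist2 ratio was 3.22 (interval of the read ratio 3.91 to 8.86) and the GFP ratio 7.45.

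The related Mef2d was at 69.7 and 155 CPM in the Twist2 cells, a ratio of 1.15, while Mef2a was under 2-fold (0.68). Tead4, which binds muscle promoters with Vgll cofactors, went from 5.87 to 46.1 CPM. Pitx3, a homeobox factor of the muscle lineage, was at 5.06 and 48.8 CPM with Twist2 and 15.7 and 10.7 CPM with GFP, so it was past 2-fold in the Twist2 cells but not in the GFP cells. The satellite cell factor Pax7 was at 60.5 and 34.6 CPM in the Twist2 cells, a ratio of -0.79, where the GFP cells had 78.7 and 4.01 CPM, a ratio of -3.99. Pax3, also a progenitor factor, had a Twist2 ratio of -0.44. Nfatc1, a calcineurin target, was the member on the lower side, at 60.2 and 21 CPM.

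**Figure D2:**
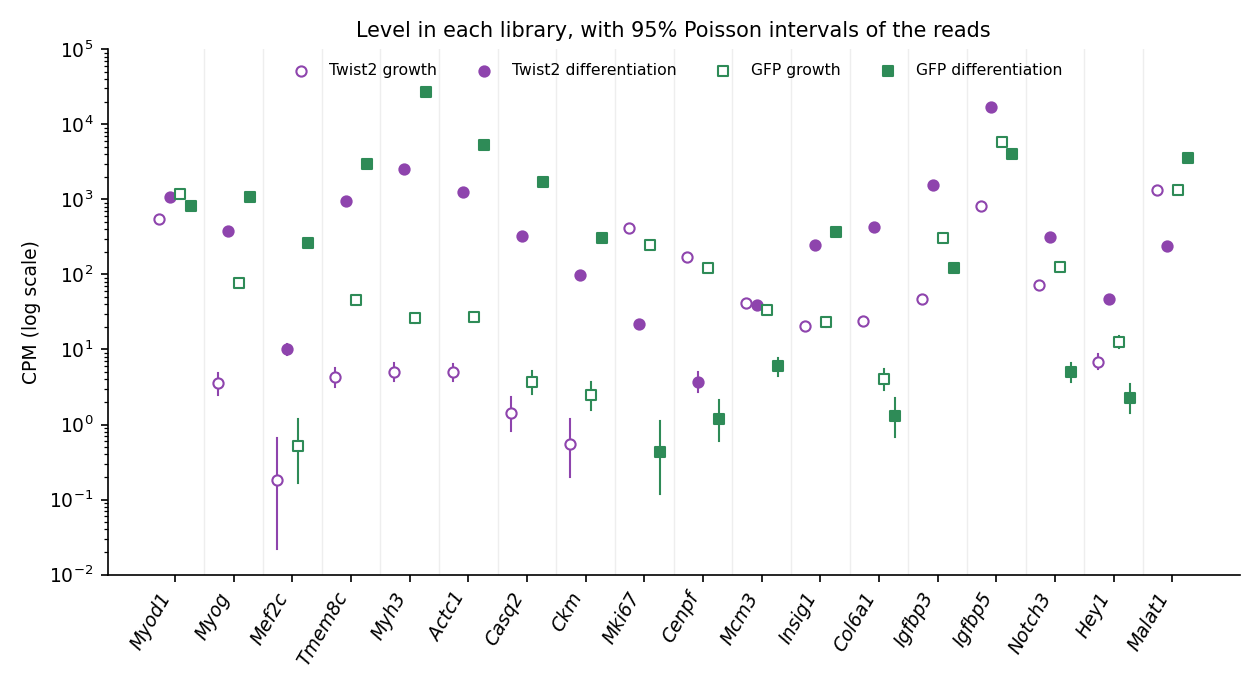
CPM on a log scale for 18 genes in each of the 4 libraries, with 95% Poisson intervals of the reads as bars (most are smaller than the symbols). Circles are Twist2 cells and squares GFP cells, open in growth and filled in differentiation medium; Myog and Mef2c end lower with Twist2, while Igfbp3, Notch3, Hey1 and Col6a1 end higher with Twist2 than with GFP.

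Of 17 inhibitory bHLH and HLH factors 8 were lower after differentiation and 5 higher, with a median of -0.76 (5 lower when scaled to reads outside the table). The Id proteins lack a DNA-binding region and sequester the E-protein partners of MyoD. Id1 was at 469.5 CPM and then 46.5 CPM in the Twist2 cells, Id2 at 334 and 55.5 CPM, and Id3 at 592 and 87.2 CPM. All 3 were at least 2-fold lower, at ratios of -3.31, -2.57 and -2.75. The GFP cells ended lower still, at 4.11, 9.10 and 3.68 CPM. Atoh8, a bHLH factor, went from 140.3 to 4.21 CPM (ratio -4.76, interval -5.49 to -4.66). Snai2, a repressor tied to mesenchymal cells, went from 146 to 32.4 CPM and Zeb2 from 183 to 80.9 CPM.

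Some repressors of the same list were higher instead. Hes6, which antagonises Hes1 and favours differentiation, was at 28.0 and 448 CPM. Hey1, a Notch-induced repressor of myogenic genes, was at 6.87 and 47.1 CPM with Twist2 but at 12.6 and 2.27 CPM with GFP. Hey1 was therefore at least 2-fold higher in one cell type and at least 2-fold lower in the other, a difference that was not tested. Zeb1 (1.53), Bhlhe40 (1.54) and Scx (2.27) were also past 2-fold higher.

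Sarcomere genes were 9 of the 12 genes with the highest ratios. All 22 listed genes of the thick filament and M-band were at least 2-fold higher in the Twist2 cells (median 5.80), as were 20 of 21 thin filament genes (median 4.83) and 19 of 24 Z-disc and intermediate filament genes (median 2.56). None of these 67 was 2-fold lower. The corresponding medians in the GFP cells were 5.32, 4.41 and 2.50. The list medians were thus close in the 2 cell types, while the summed reads of each list were lower with Twist2 in each medium, at 0.0171% and 1.21% for the thick filament against 0.0931% and 7.19% with GFP.

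Myh3 (embryonic myosin heavy chain, the first fast-type myosin of new myotubes; chromosome 11, 67078300 to 67102291, plus strand) had the highest ratio of all genes. It was at 5.06 CPM in growth and 2528 CPM in differentiation medium of the Twist2 cells, and at 25.9 and 27313 CPM in the GFP cells. The Twist2 ratio was 8.71 (interval 8.59 to 9.37) and the GFP ratio 9.99, and the differentiated GFP library was the highest of the 4. Myh8, the perinatal heavy chain that follows Myh3 in development, was at 0.452 and 82.0 CPM with Twist2 and 0.103 (1 read) and 1072 CPM with GFP. Myh7, the slow heavy chain, went from 0.181 to 67.8 CPM, from 2 reads in growth medium (interval 6.69 to 11.60). The adult fast chain Myh1 was at 23.8 CPM after differentiation with Twist2 and 210.4 CPM with GFP.

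Light chains and other thick filament parts followed. Myl4 (embryonic light chain) was at 3.98 and 1634 CPM with Twist2 and 13.1 and 5015 CPM with GFP. Mylpf (fast regulatory light chain) was at 11.7 and 2577 CPM against 118 and 10646 CPM, and Myl1 at 3.52 and 849 against 29.6 and 2959 CPM. In each case the Twist2 growth library was lowest and the GFP differentiation library highest. Mybph, a myosin-binding protein, had a Twist2 ratio of 7.87, and Ttn (titin, the spring that spans the sarcomere) went from 19.8 to 1031 CPM, a ratio of 5.63.

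In the thin filament, Tnnc2 (fast troponin C) went from 1.36 to 723 CPM in the Twist2 cells, a ratio of 8.26 (interval 8.34 to 9.90), against 8.0 and 2047 CPM in the GFP cells. The sarcomeric actins Acta1 and Actc1 went from 9.31 to 2381 CPM and from 4.97 to 1268 CPM with Twist2. The GFP differentiation library held 12797 and 5225 CPM of them. Slow troponin I, Tnni1, had a ratio of 7.29, close to that in the GFP cells (7.30). Cfl2, a cofilin that turns over actin filaments, was the thin filament member under 2-fold, at 0.96.

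Among Z-disc genes Actn2 (alpha-actinin) was at 0.452 and 144 CPM with Twist2 and 0.513 and 1219 CPM with GFP. Capn3, the muscle calpain anchored on titin, ended at 22.2 CPM with Twist2 and 292 CPM with GFP, from 4 reads in Twist2 growth medium (read-ratio interval 4.57 to 7.83). Des, already abundant in growth medium, went from 726 to 2935 CPM. Members under 2-fold in the Twist2 cells were Cryab (0.82), Flnc (0.77), Fhl3 (0.16), Fhl2 (0.15) and Ankrd1 (-0.33), of which Cryab and Flnc were past 2-fold higher in the GFP cells.

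Pooled with the triad genes, the contractile genes numbered 89, of which 81 were at least 2-fold higher and 0 lower in the Twist2 cells. Their reads made up 0.572% of the Twist2 growth library and 4.17% of the Twist2 differentiation library, against 1.20% and 16.3% in the GFP cells. After differentiation 73 of the 89 were at least 2-fold lower with Twist2 than with GFP, where 23.1% of all genes were. In growth medium 58 of them were already lower by that measure, against 11.5% of all genes. The members of the actin, myosin and troponin families are similar in sequence, and how the authors' counting shared reads among them is not given in the sources used here.

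Because the bHLH factors act at E-boxes, the 250 bases before the annotated start of the 4 thick filament genes with the highest Twist2 ratios are shown, from RefSeq (GRCm38.p6). Capitals mark CAGCTG (an E-box with the core MyoD prefers), the MEF2 site, TATAAA and the CArG box, on either strand:
Myh3 (chr11:67078050-67078299, plus strand): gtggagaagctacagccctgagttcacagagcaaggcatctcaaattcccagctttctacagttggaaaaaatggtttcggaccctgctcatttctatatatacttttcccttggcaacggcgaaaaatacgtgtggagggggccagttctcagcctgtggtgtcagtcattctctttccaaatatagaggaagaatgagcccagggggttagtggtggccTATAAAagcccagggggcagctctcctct
Myl4 (chr11:104550413-104550662, plus strand): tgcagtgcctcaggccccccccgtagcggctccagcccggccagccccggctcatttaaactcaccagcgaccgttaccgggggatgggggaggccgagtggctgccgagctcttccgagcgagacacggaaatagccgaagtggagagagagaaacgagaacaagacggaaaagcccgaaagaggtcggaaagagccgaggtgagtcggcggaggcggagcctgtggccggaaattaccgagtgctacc
Mybph (chr1:134193198-134193447, plus strand): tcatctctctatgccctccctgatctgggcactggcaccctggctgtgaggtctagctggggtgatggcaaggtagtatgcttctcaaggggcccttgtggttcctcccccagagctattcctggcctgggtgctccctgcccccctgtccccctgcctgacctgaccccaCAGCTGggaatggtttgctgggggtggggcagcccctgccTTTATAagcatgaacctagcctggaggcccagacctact
Mylpf (chr7:127211358-127211607, plus strand): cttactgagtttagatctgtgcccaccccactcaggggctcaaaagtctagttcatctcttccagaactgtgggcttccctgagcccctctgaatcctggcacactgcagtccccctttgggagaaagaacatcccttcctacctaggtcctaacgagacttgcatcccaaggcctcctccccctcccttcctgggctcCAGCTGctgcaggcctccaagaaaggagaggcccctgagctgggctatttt
Mybph held a CAGCTG at bases -79 to -74 from the start and a TATAAA on the reverse strand at -39 to -34. Mylpf held a CAGCTG at -51 to -46, and Myh3 a TATAAA at -29 to -24. The Myl4 window held none of the 4, which says only that these letters are not in these 250 bases. Of the 19 thick filament genes with a RefSeq window, 42.1% held CAGCTG, 26.3% the MEF2 site and 36.8% TATAAA. Among all 27025 windows the shares were 12.8%, 3.01% and 13%. These shares are a description of letters, and no binding was measured.

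Genes of excitation and calcium release followed the sarcomere genes. Of 22 triad and calcium genes 20 were at least 2-fold higher and 0 lower (median 3.32, GFP 2.89). Casq2 (calsequestrin, the calcium buffer of the sarcoplasmic reticulum) went from 1.45 to 324 CPM with Twist2, from 16 reads, and from 3.69 to 1709 CPM with GFP. Cacna1s, the voltage sensor of the T-tubule, went from 0.271 CPM (3 reads) to 137 CPM with Twist2 (read-ratio interval 7.43 to 11.26) and ended at 637 CPM with GFP. The release channel Ryr1 was at 29.2 and 701 CPM against 219 and 2486 CPM. Trdn (triadin) and Hrc, both proteins of the junctional reticulum, had Twist2 ratios of 6.03 and 6.97. Camk2d (0.01) and Cacna2d1 (0.73) were under 2-fold.

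At the neuromuscular junction 11 of 17 genes were higher and 1 lower (median 2.10). The fetal acetylcholine receptor subunits Chrng and Chrnd went from 15.1 to 373 CPM and from 10.8 to 264 CPM. Musk, the receptor kinase that clusters acetylcholine receptors, was under 2-fold at 127 and 100.3 CPM. Scn9a, a voltage-gated sodium channel, went the other way and had the lowest ratio of all genes. It was at 96.0 CPM in Twist2 growth medium and 0.324 CPM (4 reads) after differentiation, and at 195 and 0.433 CPM in the GFP cells. Its Twist2 ratio was -6.20 and its GFP ratio -7.09, so the near loss was seen in each cell type.

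Of 17 genes of the dystrophin complex and costamere 11 were higher and 0 lower (median 2.02). Pgm5, an adhesion plaque protein, went from 0.361 to 76.7 CPM and Ank1 from 16 to 244 CPM. Dmd (dystrophin) was at 4.88 and 30.4 CPM with Twist2 and at 3.08 and 261 CPM with GFP. The growth levels were similar, while the differentiated level was -3.06 on the log2 scale for Twist2 over GFP.

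Fusion and membrane repair genes went both ways: 7 of 19 were higher, 3 lower and the median was 0.79. The 3 lower members became 1 with a pseudocount of 5 CPM or under either other scaling. Tmem8c (myomaker, which together with myomixer fuses myoblast membranes) was at 4.25 and 963 CPM with Twist2 and 45.6 and 2972 CPM with GFP, for ratios of 7.52 and 6.00. Gm7325 (myomixer) ended at 15.0 CPM with Twist2 and 36.7 CPM with GFP, from 2 reads in Twist2 growth medium (read-ratio interval 4.50 to 9.43). Both fusogens were thus present after differentiation with Twist2, below the GFP level. The membrane repair genes Trim72 and Dysf went from 1.81 to 330.4 CPM and from 31.8 to 172 CPM. Cav1 (caveolin of non-muscle caveolae) went from 443 to 55.5 CPM.

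Fuel genes of muscle were higher in 18 of 27 cases and lower in 1, with a median of 1.38 (GFP 1.96). Mb (myoglobin) went from 0.0903 CPM, 1 read, to 168 CPM (read-ratio interval 8.38 to 16.17). Ckm (muscle creatine kinase) went from 0.542 to 98.7 CPM, Pygm (muscle glycogen phosphorylase) from 10.8 to 679 CPM and Pgam2 from 1.08 to 86.4 CPM. The GFP differentiation library was higher for each, at 467, 306, 1547 and 219 CPM. Pgk1, an enzyme of glycolysis, went from 128 to 55.9 CPM.

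Respiratory chain genes shifted the same way, mostly by less than 2-fold. All 22 were above 0, with a median of 0.79 and 5 past 2-fold (12 when scaled to reads outside the table). The GFP median was 1.13, but 18 of the 22 are in the table only through a GFP response past 2-fold, so the cell types are not compared by this list. The muscle-type subunits Cox8b and Cox6a2 stood apart, going from 0.181 CPM (2 reads) to 72.0 CPM (read-ratio interval 6.78 to 11.69) and from 1.54 to 63.7 CPM. Of 19 genes of the tricarboxylic acid cycle and mitochondrial carriers 7 were higher and 3 lower, led by Got1 (2.15) and, on the lower side, the calcium-dependent carrier Slc25a24 (-1.69).

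Sterol and fatty acid synthesis had the largest share of genes past 2-fold among the metabolic lists. Of 30 genes 29 were at least 2-fold higher and 0 lower in the Twist2 cells, with a median of 2.47 and quartiles of 1.98 and 3.07. The GFP cells had 27 higher at a median of 2.63. Scd1, the stearoyl-CoA desaturase, went from 10.9 to 331 CPM with Twist2 and from 9.44 to 369.7 CPM with GFP. Insig1, which retains the SREBP complex in the endoplasmic reticulum, went from 20.6 to 250 and from 22.9 to 371 CPM. Cyp51 and Msmo1, steps of cholesterol synthesis after squalene, had Twist2 ratios of 3.70 and 3.70. The levels with and without Twist2 lay close in each medium: after differentiation 2 members were at least 2-fold higher and 1 lower with Twist2 than with GFP, against 26.6% and 23.1% of all genes. Growth medium held 20% fetal bovine serum and differentiation medium 2% horse serum, a change that both cell types shared.

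Lysosomal genes were higher in 23 of 35 cases and lower in 0 (median 1.07), while the GFP cells had 14 higher and 5 lower (median 0.50). Ctsl, a cathepsin, was at 345 and 905 CPM with Twist2 and 216 and 223 CPM with GFP. Hexa, Gaa and Tfeb (a master regulator of lysosomal genes) had Twist2 ratios of 2.06, 1.97 and 2.13. After differentiation 14 of the 35 were at least 2-fold higher and 2 lower with Twist2 than with GFP. The shares of all genes were 26.6% and 23.1%. Among ubiquitin ligases of muscle and the proteasome 11 of 18 were higher and 3 lower (median 1.47; 1 lower with scaling to reads outside the table). Asb2 went from 0.0903 CPM (1 read) to 168 CPM (read-ratio interval 8.38 to 16.16) and Trim63 (MuRF1) from 1 read to 24.3 CPM (read-ratio interval 5.58 to 13.38). The mitotic ligase subunit Ube2c went from 128 to 17.1 CPM.

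The cell cycle genes formed the lower end of the response. Of 87 mitosis genes 81 were at least 2-fold lower and 2 higher in the Twist2 cells, with a median of -2.89. The GFP cells also had 81 lower and 2 higher, at a median of -4.29. Mki67, the proliferation marker, was at 411 CPM and then 22 CPM with Twist2, and at 248 and 0.433 CPM with GFP, for ratios of -4.16 and -7.44. The Twist2 cells thus started above the GFP cells and ended above them. The kinetochore proteins Cenpf and Cenpe went from 172 to 3.72 CPM and from 156 to 5.26 CPM, the spindle pole protein Aspm from 115 to 3.56 CPM and the kinetochore scaffold Casc5 from 48.3 to 1.21 CPM. Cenpf (chromosome 1, 189640606 to 189688086, minus strand) had a ratio of -5.19 (interval -5.98 to -5.11). Ccnb2 (cyclin B2), Kif11 (the bipolar spindle kinesin) and Hmmr were at -4.19, -4.29 and -4.42.

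The 2 list members that were higher are kinesins that do not drive the spindle. Kif26b, which acts in signalling, was at 13.9 and 138 CPM, and Kif24, of centrioles, at 9.22 and 27.8 CPM. The cargo-carrying kinesins Kif5b (-0.33) and Kif5c (-0.34) were under 2-fold. After differentiation 68 of the 87 genes were at least 2-fold higher with Twist2 than with GFP, where 26.6% of all genes were, and 2 were lower. In growth medium 7 were higher by that measure, against 4.89% of all genes. The reads of the list made up 0.828% and 0.139% of the Twist2 libraries, in growth and differentiation medium, and 0.567% and 0.165% of the GFP libraries. The summed share after differentiation was thus slightly lower with Twist2, and Kif5b, the member with the most reads in the GFP differentiation library, was at 181 CPM with Twist2 and 1193 CPM with GFP there.

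The windows before the starts of the 4 mitosis genes with the lowest ratios are shown because many promoters of this class carry CCAAT boxes and the cell cycle homology element TTTGAA, which capitals mark on either strand:
Cenpf (chr1:189688087-189688336, minus strand): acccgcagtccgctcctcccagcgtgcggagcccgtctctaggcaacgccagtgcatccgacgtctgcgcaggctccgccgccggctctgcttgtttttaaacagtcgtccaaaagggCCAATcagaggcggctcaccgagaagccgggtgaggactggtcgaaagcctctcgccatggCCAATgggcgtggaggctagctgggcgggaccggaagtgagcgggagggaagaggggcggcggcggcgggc
Aspm (chr1:139454523-139454772, plus strand): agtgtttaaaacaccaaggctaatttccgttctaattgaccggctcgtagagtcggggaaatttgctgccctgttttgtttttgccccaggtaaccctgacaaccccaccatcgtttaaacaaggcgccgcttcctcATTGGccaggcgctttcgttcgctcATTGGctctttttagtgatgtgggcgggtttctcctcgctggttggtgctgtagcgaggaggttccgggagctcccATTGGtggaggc
Cenpe (chr3:135212313-135212562, plus strand): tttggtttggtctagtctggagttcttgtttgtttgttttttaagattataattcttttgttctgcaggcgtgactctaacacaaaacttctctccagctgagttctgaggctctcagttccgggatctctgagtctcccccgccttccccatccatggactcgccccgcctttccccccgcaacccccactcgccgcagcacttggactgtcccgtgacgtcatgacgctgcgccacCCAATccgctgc
Casc5 (chr2:119046869-119047118, plus strand): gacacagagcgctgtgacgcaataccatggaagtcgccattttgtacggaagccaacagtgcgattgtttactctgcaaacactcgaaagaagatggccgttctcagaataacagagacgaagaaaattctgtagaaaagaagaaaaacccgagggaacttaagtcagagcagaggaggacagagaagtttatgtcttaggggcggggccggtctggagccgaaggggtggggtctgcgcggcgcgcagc
Cenpf held CCAAT at bases -132 to -128 and -71 to -67, and Cenpe at -12 to -8. Aspm held it on the reverse strand at -113 to -109, -88 to -84 and -12 to -8. The Casc5 window held neither motif. Of the 73 mitosis genes with a RefSeq window, 64.4% held CCAAT and 32.9% TTTGAA, against 34.5% and 16.3% of all 27025 windows. CCAAT was also in 60.7% of the windows of 28 replication genes and 58.8% of those of 17 collagen genes, and TTTGAA in 14.3% and 5.88%. CAGCTG was in 11.0% of the mitosis windows.

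In the DNA replication list, 11 of 33 genes passed 2-fold on the lower side in the Twist2 cells and 0 on the higher side, at a median of -0.82. In the GFP cells the 33 had a median of -2.33, but 29 of them are in the table only because their GFP response passed 2-fold, so their GFP counts and steps are not set against those with Twist2. Mcm3, a subunit of the replicative helicase, was at 41.6 and 38.7 CPM with Twist2 and at 34.1 and 5.96 CPM with GFP. Pcna, the polymerase clamp, was at 42.7 and 40.1 CPM against 34.5 and 15.1 CPM. The GFP differentiation library was the low one for each. Both Twist2 libraries lay within 2-fold of the GFP growth library, as the entry rule requires of genes that entered through the GFP response only. That closeness is therefore no separate result for Mcm3 and Pcna. Pola1 (-2.13), Rrm2 (-1.79), Tk1 (-1.62) and Lig1 (-1.43) were the lowest members with Twist2. After differentiation 31 of the 33 were at least 2-fold higher with Twist2 than with GFP and 0 lower, a count that the same entry rule favours, and in growth medium 2 were higher. Of 18 repair and checkpoint genes 15 were lower and 0 higher (median -1.32, GFP -2.33), led by Fanci (30.9 and 2.99 CPM) and Brca2 (21.7 and 2.35 CPM).

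Genes of cell cycle exit and E2F went both ways, with 7 of 21 higher and 7 lower. The median was -0.05, and 0.20 when scaled to reads outside the table. Cdkn1a (the kinase inhibitor that MyoD induces on exit) was at 382 and 2286 CPM with Twist2 and 787 and 3223 CPM with GFP. Ccnd3, the cyclin D kept in myotubes, went from 244 to 1205 CPM. Ccnd1, the cyclin D of growth, was at 732 and 254 CPM with Twist2 and 700.0 and 30 CPM with GFP. It was 2-fold lower in each cell type but ended higher with Twist2. Ccnd2 went from 214 to 643 CPM with Twist2 and from 255 to 162 CPM with GFP, and Myc from 47.5 to 10.2 CPM with Twist2.

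**Figure D3:**
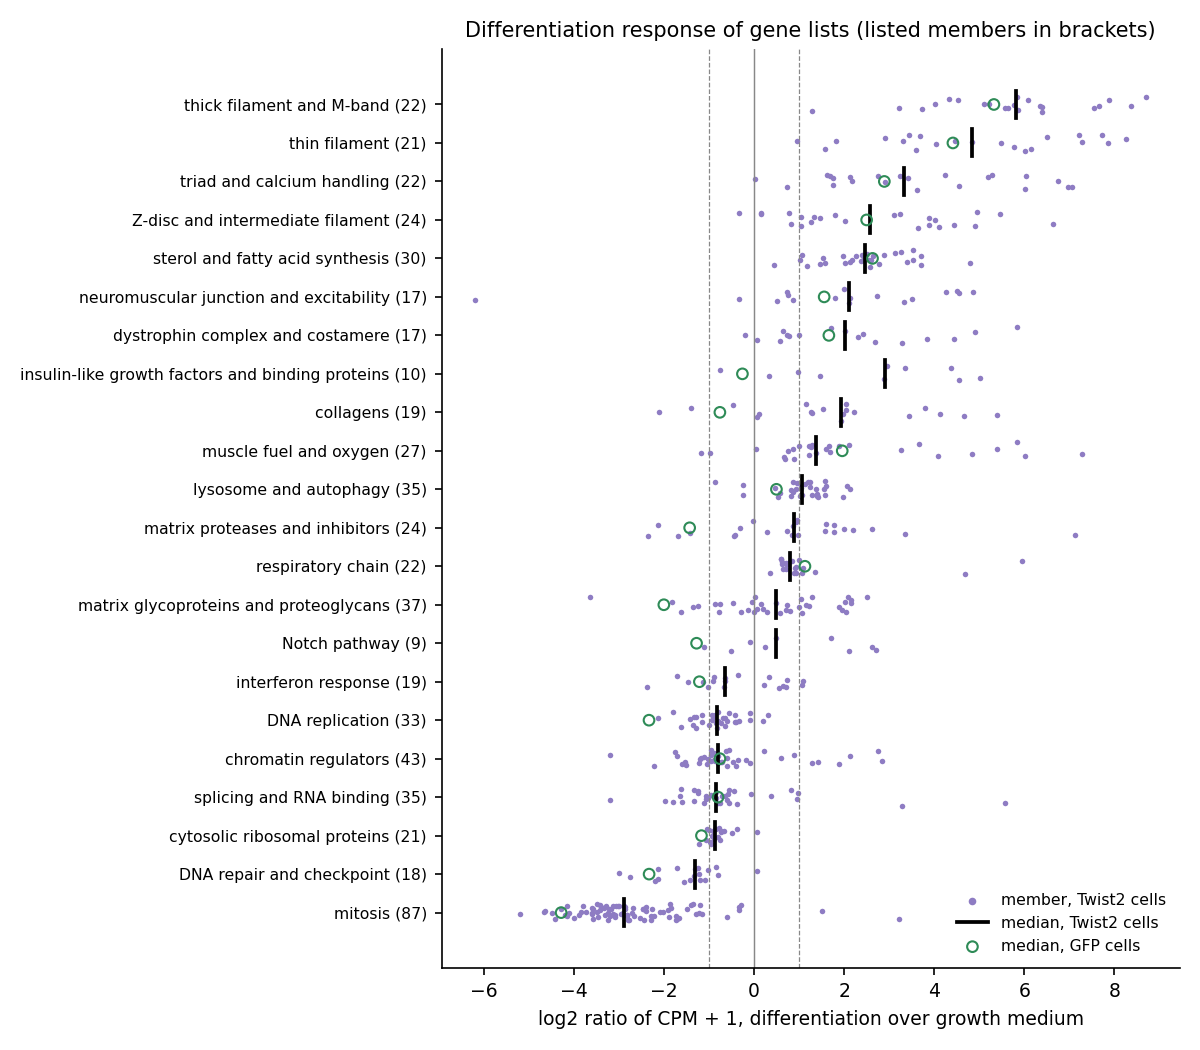
Each dot is a listed gene, placed by its log2 ratio of CPM + 1 (differentiation over growth medium) in the Twist2 cells; black bars are list medians in Twist2 cells and open circles list medians in GFP cells. Dashed lines mark 2-fold, and the numbers in brackets are the listed members. The medians lie close for sarcomere and sterol genes and apart for collagens, matrix glycoproteins and DNA replication. Most replication genes entered the table through the GFP response only.

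Matrix genes took different courses in the 2 cell types, a difference that was not tested. Of 19 collagen genes 14 were at least 2-fold higher and 2 lower after differentiation with Twist2 (median 1.93). The GFP cells had 5 higher and 8 lower, at a median of -0.76 (0.04 when scaled to reads outside the table). Collagen reads were 0.695% and then 2.04% of the Twist2 libraries, and 0.471% and then 0.261% of the GFP libraries. After differentiation 14 of the 19 were at least 2-fold higher and 2 lower with Twist2 than with GFP. The shares of all genes were 26.6% and 23.1%. In growth medium 6 were higher and 1 lower, against 4.89% and 11.5% of all genes.

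Col6a1, a chain of the collagen VI network around muscle fibres (chromosome 10, 76708792 to 76726168, minus strand), was at 23.9 CPM in growth and 433 CPM in differentiation medium with Twist2, and at 4.0 and 1.30 CPM with GFP. The Twist2 ratio was 4.13 (interval 4.01 to 4.37) and the GFP ratio -1.12 (interval -2.69 to -0.66). Col6a3 went from 17.0 to 195 CPM with Twist2 and ended at 0.65 CPM with GFP. The basement membrane chains Col4a1 and Col4a2 were at 3540.1 and 2105 CPM after differentiation with Twist2 and at 142 and 191 CPM with GFP, from 927 and 454 CPM in growth medium with Twist2 and 1200.1 and 540.4 CPM with GFP. Col12a1, a fibril-associated collagen, went from 29.0 to 753 CPM with Twist2 and from 26.6 to 90.2 CPM with GFP. Col25a1, a transmembrane collagen of muscle, was an exception with equal ratios of 5.40 and 5.40. On the lower side were Col1a2 (17.0 and 3.15 CPM) and Col7a1 (14.4 and 4.77 CPM). Col8a1 was flat with Twist2 (124 and 128 CPM) and lower with GFP (198 and 3.68 CPM).

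Of 37 matrix glycoproteins and proteoglycans 13 were higher and 5 lower with Twist2 (median 0.49), against 9 and 21 with GFP (median -2.00). Several abundant members stayed near their growth level with Twist2 and were far lower after differentiation with GFP. Fn1 (fibronectin) was at 5150.4 and 4685 CPM with Twist2 and 3248 and 119 CPM with GFP. Tnc (tenascin C, made in growing and injured muscle) was at 244 and 361 CPM against 141 and 2.06 CPM. Fbln2 (-0.86 with Twist2, -5.21 with GFP), Vcan (0.29, -4.10) and Fbn1 (0.71, -3.47) had the same order. Dcn (decorin) went from 10.6 to 64.6 CPM and Ogn (osteoglycin) from 29.3 to 133 CPM, while Smoc2, a secreted calcium-binding matrix protein, went from 105 to 7.52 CPM and Wisp2 from 56.7 to 15.2 CPM.

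Proteases and their inhibitors were higher in 9 of 24 cases and lower in 4 with Twist2 (median 0.89; 14 higher when scaled to reads outside the table), against 4 and 16 with GFP (median -1.43). Adamtsl2, a matrix glycoprotein of the ADAMTS-like family, went from 0.632 to 228 CPM with Twist2 and ended at 207 CPM with GFP, so this large ratio was shared. Timp3, an inhibitor bound to matrix, was at 15.3 and 99.3 CPM with Twist2 and 35.9 and 3.57 CPM with GFP, in opposite directions. Adam8 (-2.35) and Adamts6 (-2.14) were the lowest members. Collagen processing enzymes were split, 3 of 12 higher and 3 lower, shares near the 26.2% and 24.5% of all genes. The cross-linker Lox went from 26.2 to 128 CPM, and Pcolce2, an enhancer of procollagen cleavage, from 75.5 to 2.43 CPM with Twist2 and from 36.9 to 0.217 CPM (2 reads) with GFP.

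Insulin-like growth factor (IGF) genes had the largest median of the signalling lists. Of 10 genes 7 were higher and 0 lower with Twist2 (median 2.92). In the GFP cells 4 were higher and 3 lower, at a median of -0.26 (0.08 with size factors and 0.51 with scaling to reads outside the table). Igf2, the growth factor that myoblasts secrete as they differentiate, was at 211 and 4986 CPM with Twist2 and 1252 and 8642 CPM with GFP. Its binding protein Igfbp5 was at 813 and 16858 CPM with Twist2 and 5739 and 4025 CPM with GFP. Igfbp5 was lowest in Twist2 growth medium and highest in Twist2 differentiation medium. Igfbp3, another binding protein, was at 47.3 and 1553 CPM with Twist2 against 308 and 121 CPM with GFP, again with the 2 Twist2 libraries at the extremes. Igf1r, the signalling receptor, was under 2-fold at -0.75, and Igf2r, which clears Igf2, went from 61.5 to 457 CPM.

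In the TGF-beta and BMP family 13 of 25 genes were higher and 5 lower (median 1.20). Hfe2 (hemojuvelin, a BMP co-receptor of muscle) went from 1.36 to 173 CPM, Fst (follistatin, which binds myostatin and activin) from 2.35 to 92.9 CPM and Mstn (myostatin) from 0.181 CPM (2 reads) to 14.6 CPM (read-ratio interval 4.47 to 9.40). Each had a ratio past 8-fold in the GFP cells too, at 4.40, 5.47 and 4.06. The inhibitory Smads Smad6 and Smad7 went from 42.7 to 10.9 CPM and from 72.0 to 16.7 CPM.

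Notch signalling holds satellite cells undifferentiated. Of 9 listed Notch genes 4 were higher and 1 lower with Twist2 (median 0.49), and 0 higher and 5 lower with GFP (median -1.28). The receptor Notch3 was at 71.5 and 313 CPM with Twist2 and at 126 and 4.98 CPM with GFP. The ligand Dll1 was at 9.49 and 67.9 CPM against 67.6 and 25.8 CPM, and the target Hey1 followed them, as given above. On CPM as deposited, a receptor, a ligand and a target of the pathway were therefore each at least 2-fold higher with Twist2. Each was at least 2-fold lower with GFP, where the ligand Dll1 was nearest to 2-fold, at -1.36. The 5 Notch genes lower with GFP became 4 with size factors and 2 with scaling to reads outside the table. The GFP median of the list became -0.93 and -0.49 under these scalings, for which GFP ratios of single genes are not given. Rbpj, the DNA-binding partner, was lower in each (-1.10 and -1.28), and Hes1 was under 2-fold (0.49).

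Receptor tyrosine kinases, their ligands and feedback genes were higher in 11 of 36 cases and lower in 8 (median 0.49, GFP -1.0), shares near the 26.2% and 24.5% of all genes. The feedback inhibitors Spry1 and Spry2 went from 4.52 to 109 CPM and from 38.0 to 140.3 CPM. Erbb3 and Epha3 had ratios of 3.33 and 2.71. Kitl, the ligand of Kit, was the lowest, at 105 and 13.8 CPM. Wnt genes were higher in 5 of 13 cases and lower in 2, with Wnt9a at 1.97, Fzd4 at 1.87 and Lgr6, an R-spondin receptor, at 262 and 21.7 CPM.

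Imprinted genes of growth control took 0.59% and then 2.98% of the reads with Twist2 and 1.89% and then 4.56% with GFP. Of 13 listed 5 were higher and 3 lower. The median was -0.07, but 0.19 when scaled to reads outside the table and 1.97 under a minimum of 10 CPM for the higher library. H19, the noncoding RNA beside Igf2, was at 2328 and 20176 CPM with Twist2 and 11102 and 29045 CPM with GFP. In the Twist2 differentiation library it had the highest CPM of all genes, and 8826 CPM per kilobase of its longest transcript. The next 5 by CPM there were Igfbp5 at 2807, Col3a1 at 1573, Acta2 at 2482, Igf2 at 1056 and Fn1 at 563 CPM per kilobase. Mest, an imprinted hydrolase of mesoderm, was at 139 and 548 CPM with Twist2 and 793 and 29.1 CPM with GFP, and Peg10 went from 75.4 to 552 CPM with Twist2.

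Long noncoding RNAs were more often lower than higher. Of 40 that GENCODE M21 marks as such, 3 were at least 2-fold higher (H19, Peg13 and Gm14635, the last from 0 reads) and 21 lower. The shares of all genes were 26.2% and 24.5%. The median of the 40 was -1.04 (GFP 6 higher and 20 lower, median -0.97). Some of the 21 lay just past 2-fold, such as A330074K22Rik (-1.01) and Snhg5 (-1.06). Other scalings are not given for this class. Xist, which coats the inactive X chromosome, had the lowest ratio of the 40 with Twist2, at 992 and 118 CPM (GFP ratio -0.80). Malat1, of nuclear speckles, was at 1317 and 236 CPM with Twist2 and at 1339.7 and 3610.2 CPM with GFP. Neat1, the scaffold of paraspeckles, was at 1110.3 and 149 CPM against 891 and 720.2 CPM. The maternally expressed Meg3 and Rian went from 6.96 to 0.566 CPM and from 5.60 to 0.89 CPM with Twist2 and from 10.5 to 12.3 CPM and from 11.4 to 10.9 CPM with GFP. The Twist2 differentiation library was the lowest of the 4 for Malat1, Neat1, Meg3 and Rian, which were chosen after their values were seen. Tug1 and Kcnq1ot1 had Twist2 ratios of -0.87 and -1.65. Strand is not given for the counting, so reads of these genes and of overlapping antisense genes cannot be told apart.

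Transcript length moved with the response in the Twist2 cells, and its part in the other results was not tested. With genes split into 5 groups by their longest annotated transcript, the Twist2 median was 0.47 for the shortest, then -0.06, -0.37 and -0.33, and -0.51 for the longest. The GFP medians were -0.14, -0.61, -0.70, -0.40 and -0.26, with no such order. The same split within lists gave mitosis genes medians of -2.81 and -3.14 for the shorter and longer members, and replication genes -0.82 and -0.83. The thick filament list had 6.35 and 5.77, and collagens, which are long, 1.40 and 2.04.

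**Figure D4:**
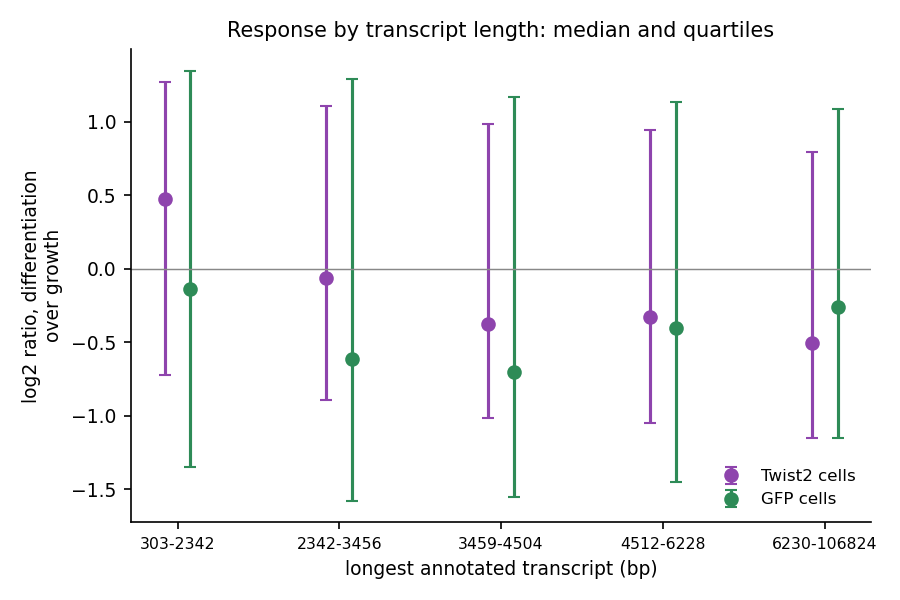
Median (points) and quartiles (bars) of the log2 ratio of CPM + 1, differentiation over growth medium, for 5 groups of genes by longest annotated transcript in base pairs (x axis), in Twist2 cells (purple) and GFP cells (green). The Twist2 median is 0.47 for the shortest transcripts and -0.51 for the longest, while the GFP median is lowest for those in the middle.

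Adhesion genes were higher in 14 of 27 cases and lower in 5 (median 1.27; 2 lower when scaled to reads outside the table). Itgb1bp2 (melusin, a muscle integrin partner) went from 0.723 to 36.3 CPM, the muscle integrin Itga7 from 752 to 3042 CPM and Ncam1 from 427 to 1698 CPM. Nrcam and Pcdh19 had ratios of -2.55 and -1.82, and Vcam1, an adhesion molecule of satellite cells, went from 115 to 48.9 CPM. Cytokine and prostaglandin genes were split, 7 of 25 higher and 5 lower (median -0.11, or 0.14 when scaled to reads outside the table), also near the shares of all genes. Ptgis, the prostacyclin synthase, went from 67.1 to 363 CPM, and Csf1, the macrophage growth factor, from 923 to 235 CPM. Cxcr4, the receptor of Cxcl12 on migrating myoblasts, was at 13.6 and 29.9 CPM with Twist2 and 65.5 and 2.60 CPM with GFP.

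Of 19 interferon response genes 2 were higher and 5 lower (median -0.64, GFP -1.22; 0 higher and 3 lower with a pseudocount of 5 CPM), with Ifi47 and Gbp4 at -2.38 and -1.46. The lower share was near the 24.5% of all genes, while 26.2% of all genes were higher. Immediate early genes were higher in 9 of 20 cases and lower in 6 (median 0.38). Zfp36l1, which destabilises mRNA, went from 10.7 to 114 CPM and Fos from 7.68 to 69.0 CPM, while Klf2 and Fosl1 had ratios of -3.0 and -2.57. Genes of the ATF4 and unfolded protein responses were higher in 7 of 15 cases and lower in 1 (median 0.95, GFP 1.17). Ddit4, an inhibitor of mTORC1, was at 60.4 and 232 CPM with Twist2 and 47.9 and 18.7 CPM with GFP, and Herpud1 was higher in each (1.57 and 2.83).

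Ribosomal protein genes shifted by small steps. Of 21 cytosolic ribosomal protein genes 20 were below 0, at a median of -0.88, and 3 passed 2-fold. The GFP median was -1.17, and 19 of the 21 are in the table only through a GFP response past 2-fold. None passed 2-fold in either cell type when scaled to reads outside the table. Rpsa (521 and 224 CPM) was the lowest. Ribosomal protein genes have many processed copies, and reads of such copies could not be separated here. Of 17 translation and nucleolar genes 6 were lower and 1 higher (median -0.65), with Npm1, the nucleolar chaperone, at 409 and 136 CPM. Splicing and RNA-binding genes were lower in 14 of 35 cases and higher in 2 (median -0.85; 8 lower and 5 higher when scaled to reads outside the table). Rbm24, a muscle splicing factor, went from 0.452 to 68.1 CPM and Rbfox1 from 1.08 to 19.3 CPM, against Mbnl3 at 33.5 and 2.75 CPM and Ptbp3 at 124 and 30.9 CPM. Chromatin regulators were lower in 13 of 43 cases and higher in 6 (median -0.80; 7 lower when scaled to reads outside the table), against 24.5% of all genes lower and 26.2% higher. Hmga2, a chromatin protein of embryonic and dividing cells, went from 1178 to 126 CPM, and Hdac9, which binds Mef2, from 1.45 to 15.5 CPM. Of 6 histone genes 3 were higher and 2 lower, with Hist1h2bc and Hist1h1c at 2.19 and 2.02.

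Cell type markers were read alongside. Of 22 myoblast and satellite cell markers 13 are in the table, of which 8 were higher and 1 lower with Twist2. Their median was 1.71, against -0.55 with GFP (0.25 when scaled to reads outside the table), and their summed reads were 0.334% and 1.07% with Twist2 and 0.683% and 1.71% with GFP. Of 20 fibroblast and fibro-adipogenic markers 10 are in the table, and 2 were higher and 4 lower (median -0.49). Col3a1 went from 3043 to 8749.8 CPM and Dcn from 10.6 to 64.6 CPM, while Ly6a went from 32.9 to 3.32 CPM and Smoc2 from 105 to 7.52 CPM. Their summed reads were 0.557% and 1.07% of the Twist2 libraries and 0.239% and 0.142% of the GFP libraries, of which Col3a1, itself in the collagen list, made up 54.6% and 81.9% with Twist2. Without Col3a1 the other 9 summed to 0.253% and 0.193% with Twist2 and 0.159% and 0.0857% with GFP. The part of fibroblasts in the matrix results was not tested. Of 20 smooth muscle and pericyte markers 12 are in the table, and 7 were higher and 3 lower (median 1.44), with summed reads of 0.218% and 0.922% with Twist2 and 0.307% and 1.51% with GFP. Acta2, which new myotubes also express, went from 113 to 5050.1 CPM, whereas the pericyte marker Rgs5 went from 85.1 to 4.69 CPM and Rgs4 from 144 to 5.02 CPM. Of 11 adipocyte markers 1 is in the table, Lpl, at 1.26 and 20.6 CPM. Of 21 tendon and cartilage markers 4 are in the table: Scx (28.8 and 143 CPM), Egr1, Sox9 and Runx2 (-1.13), with summed reads of 0.0238% and 0.0553%. Of 14 Schwann cell and neuron markers 3 are in the table, Erbb3, Stmn2 and Tubb3, with 0.011% and 0.00577%. Endothelial, leukocyte and epithelial markers have 0 entries in the table, so defining markers such as Pecam1, Ptprc and Epcam are not analysed here, and the table does not show them to be unexpressed. Of the defining fibroblast markers, Pdgfra was not analysed here either. Among listed fibroblast markers Ly6a was at 0 reads in the GFP differentiation library.

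The direction of most 2-fold responses was shared with the GFP cells. Of the 986 genes higher with Twist2, 763 were also at least 2-fold higher with GFP (77.4% of the Twist2 list and 63.2% of the GFP list), 181 were under 2-fold and 42 were lower. Of the 922 lower genes 611 were lower with GFP (66.3% and 39.5%), 305 were under 2-fold and 6 were higher. Among all 3760 genes 32.1% were higher and 41.1% lower with GFP, shares that the entry rule raises. A further 892 genes were lower with GFP but under 2-fold with Twist2, and 439 were higher with GFP but under 2-fold with Twist2. Those 2 counts are raised by the 1333 genes that entered the table through the GFP response only. The differences between the cell types were not tested, with 1 library each.

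The 48 genes at least 2-fold in opposite directions were led by Mest, Notch3, Igfbp3 and Sox8 on the side higher with Twist2. The 48 were counted on CPM as deposited, and no other scaling is given for them. All genes lower with GFP fell from 1545 to 1023 with size factors and 690 with scaling to reads outside the table. Some of the 48 lay just past 2-fold with GFP, such as Rnf149 (-1.07), Reln (-1.10) and Col6a1 (-1.12). Sox8, an HMG-box factor of satellite cells, was at 0.723 and 25.2 CPM with Twist2 and 17.7 and 2.82 CPM with GFP. Spp1 (osteopontin) was at 917 and 3707 CPM against 1242 and 221 CPM, and Gfra1, a receptor of glial-derived factors, at 135 and 332 CPM against 174 and 9.75 CPM. The 6 on the other side were Npr3, Malat1, Lrp2, Col7a1, Pdlim1 and Arhgap18. Npr3, the natriuretic peptide clearance receptor, was at 29.5 and 5.42 CPM with Twist2 and 14.4 and 58.6 CPM with GFP. Among genes that moved the same way, the widest shortfall with Twist2 was in Mef2c, Myh8 and Capn3, described above, and in Prkg1 (cGMP-dependent kinase), at 46.6 CPM after differentiation with Twist2 and 462 CPM with GFP. Piezo2, a mechanosensitive channel, was under 2-fold with Twist2 (39.7 and 73.1 CPM) and lower with GFP (58.6 and 1.52 CPM), and Fsd1l was under 2-fold with Twist2 (-0.41) and higher with GFP (3.16).

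**Figure D5:**
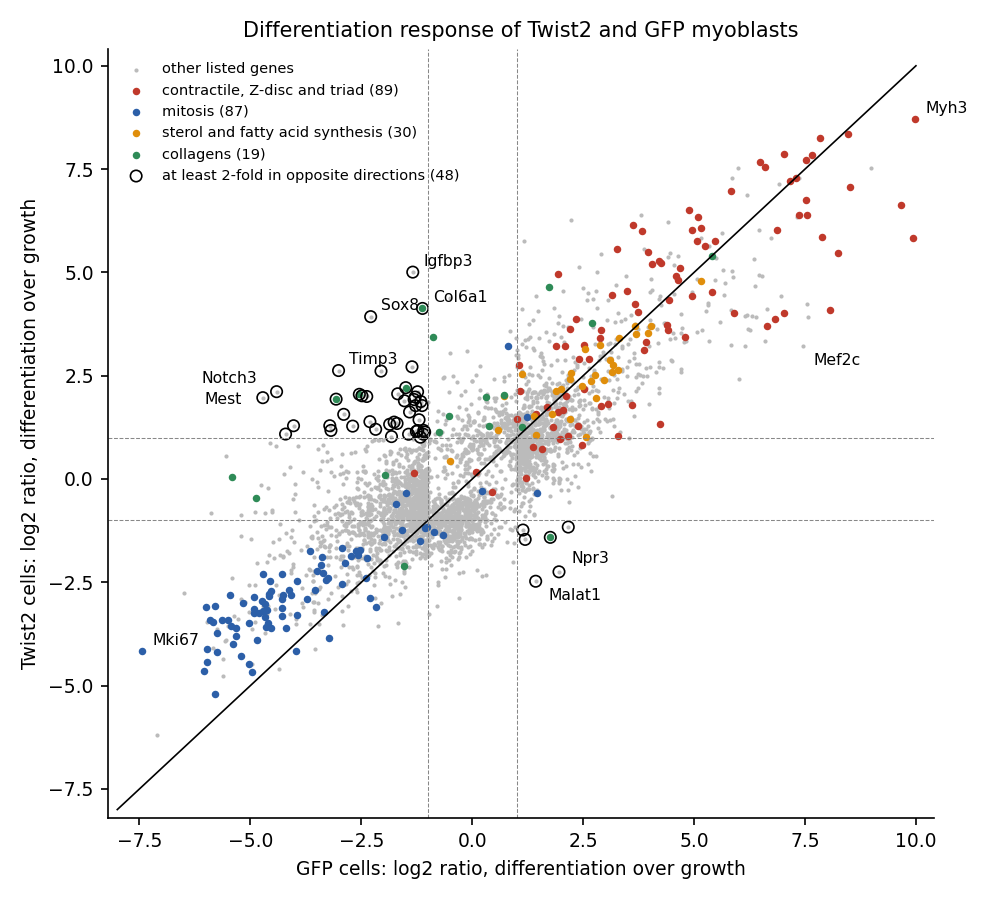
Log2 ratio of CPM + 1, differentiation over growth medium, in GFP cells (x axis) and Twist2 cells (y axis) for 3760 genes, coloured by list. The line marks equal responses, dashed lines mark 2-fold and black rings the 48 genes past 2-fold in opposite directions, 42 of them higher with Twist2. The 48 were counted on CPM as deposited, without the other scalings. Mitosis genes (blue) lie mostly above the line, since their ratios were lower with GFP, and collagens (green) mostly above it.

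Outside the lists, the highest and lowest ratios included a few other genes. Ctrb1, a chymotrypsinogen better known from pancreas, was at 0.181 CPM (2 reads) and 218 CPM with Twist2 (read-ratio interval 8.38 to 13.28) and 1.44 and 1241 CPM with GFP. Aqp1, a water channel, was at 78.8 and 2.91 CPM with Twist2, a ratio of -4.35, and was lower with GFP as well (-5.61).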

How the data were processed

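Total RNA was sequenced from 4 groups of mouse myoblasts with 1 library each. The submitters' processing notes name TopHat2 2.0.0 and DESeq2 1.6.3 with the GRCm38 (mm10) build, without their roles. The sources used here do not give the counter, the annotation or the strand. The authors deposited CPM (reads per gene after division by library size) for 3760 genes, and the authors' deposited table holds 3 log2 ratios against the GFP growth library, per the file headers. These equal log2 ratios of CPM + 1 within 1.3e-11. From the values, the table holds genes that reached 10 CPM in 2 or more libraries and had an authors' log2 ratio of at least 1 in size in 1 or more of the 3 comparisons. Other genes were not analysed here.

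Log2 ratios were recomputed with a pseudocount of 1 CPM, which understates the change of low genes, and genes past 2-fold were counted with no minimum level. No count model was fitted and no p-value is given. Dividing by the CPM of 1 read gave whole numbers for 100.0% of the values, to within 0.001 reads, which gave the reads and library totals. From them, exact 95% intervals were computed: Clopper-Pearson for a read ratio and Poisson for a level. Copies of a molecule made by PCR cannot be told from separate molecules, so the intervals cover counting error only. Counts of 3760 genes were simulated for the Twist2 comparison with Poisson error only. The changed genes were drawn from those with a mean of at least 10 CPM. Of these, 100% of the genes changed 3-fold and 100% of those changed 8-fold were recovered. The intervals covered 96% and 93% of the true ratios. Such a simulation checks the computation and says nothing of variation between replicates or of genes with few reads in both media.

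The gene lists were chosen with earlier results of these data known. So were the rule for named genes and the comparisons. The rule took a fixed set of regulators, the 12 highest and 12 lowest Twist2 ratios, the 8 highest and 8 lowest differences between the cell types, up to 4 leading members of each list with up to 2 against its median, and the 6 genes of highest CPM. Other genes were named after their values were seen, to fill in pathways, and some genes that the rule selects are not reported here. The 8-fold counts, the length splits, the long noncoding class and the choice of promoters to print were also set after the data were seen. Positions and transcript lengths come from GENCODE M21 (3609 symbols matched, 140 by an older symbol and 11 not). Promoter windows come from RefSeq (GRCm38.p6, 2927 of 3760 genes). The E-boxes CAGCTG with variants CATATG and also CATCTG, the TATA box TATAAA and the CCAAT box were counted on both strands, as were TTTGAA, the MEF2 site and the CArG box. Motif shares are void where fewer than 80% of a set had a window, which holds for all higher genes, all lower genes and the thin filament, Z-disc, triad and sterol lists. The alternatives were a pseudocount of 5 CPM, a minimum of 10 CPM in the higher library, median-of-ratios size factors and scaling to reads outside the table. They are given here for ratios of differentiation over growth medium, not for ratios of Twist2 over GFP. Python 3.11.15, pandas 2.3.3, numpy 2.4.6, scipy 1.17.1 and matplotlib 3.10.9 were used.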

Additional observations from a re-analysis of the deposited data

Results flagged for a closer look

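These results differed in direction between the Twist2 and GFP cells. Each cell type had 1 library in each medium, so no difference was tested. Values are log2 ratios of CPM + 1, differentiation over growth medium, with Twist2 minus GFP.

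Among named genes the difference was 6.69 for Mest, 6.52 for Notch3, 6.35 for Igfbp3, 6.22 for Sox8 and 5.64 for Timp3. On CPM as deposited, all 5 were at least 2-fold higher with Twist2 and at least 2-fold lower with GFP. Igfbp3 was nearest to 2-fold with GFP, at -1.34. Size factors and scaling to reads outside the table moved the GFP median of all genes up by 0.34 and 0.78. GFP ratios of single genes are not given under those scalings. It was -4.20 for Npr3 and -3.90 for Malat1, which were lower with Twist2 and higher with GFP.

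Among gene lists the medians had opposite signs and differed by 3.18 for the insulin-like growth factors and binding proteins, 2.69 for collagens, 2.49 for matrix glycoproteins, 2.32 for proteases and inhibitors and 2.26 for the myoblast and satellite cell markers. The differences were 1.77 for Notch genes, 1.48 for receptor tyrosine kinases and feedback genes and 1.44 for collagen processing. All 8 had a positive median with Twist2. The GFP median became positive when scaled to reads outside the table for collagens (0.04), the insulin-like growth factors (0.51) and the myoblast markers (0.25), and for the insulin-like growth factors also with size factors (0.08). Fibroblast markers, summed, were 1.07% of reads in the Twist2 differentiation library and 0.142% in the GFP differentiation library. Without Col3a1, which is also in the collagen list, the other 9 were 0.193% and 0.0857%, and in the growth libraries 0.253% and 0.159%, and their part in the matrix differences was not tested.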

How the results depend on the processing

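The 2-fold counts of the Twist2 cells stayed within 1.5 times under all 4 alternatives, from 877 to 1220 genes higher and from 628 to 922 lower. In the GFP cells the lower count of 1545 became 1023 with size factors and 690 with scaling to reads outside the table. GFP list counts moved too: with scaling to reads outside the table the lower count of ribosomal genes went from 21 to 0 and of collagens from 8 to 5. For the gene lists with Twist2, these counts moved by more than 1.5 times. With scaling to reads outside the table, members lower with Twist2 became 5 for inhibitory helix-loop-helix factors, 1 for fusion, 0 for muscle fuel, 0 for ribosomal proteins, 3 for translation, 1 for histones, 4 for cell cycle exit, 0 for Notch, 2 for integrins and cadherins, 3 for interferon response, 1 for ubiquitin ligases, 7 for chromatin and 8 for splicing. Members higher became 12 for the respiratory chain, 14 for matrix proteases and 5 for splicing. With a pseudocount of 5 CPM, members lower became 1 each for fusion, ribosomal proteins, collagens and imprinted genes, and 3 each for integrins and cadherins and for interferon response. Members higher became 2 for cytokines and 0 for interferon response. With size factors, 1 fusion gene was lower and 4 splicing genes higher, and with the 10 CPM minimum 0 imprinted genes were lower. The cause of these moves was not tested. Among the genes past 2-fold that the naming rule selected, no Twist2 ratio changed sign. That is no separate check, because none of the alternatives could reverse such a ratio. The scalings moved the Twist2 median of all genes by at most 0.25, and a pseudocount or a minimum level keeps the sign. No paired analysis was possible because each group has 1 library. Depth limits genes with few reads in growth medium, such as Mb (1 read) and Mef2c (2 reads), whose intervals are wide.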
